A study of Homo sapiens with 6 samples.

Results

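The p53 pathway and target genes described here are 35 genes, either regulators of p53 or known p53-induced genes, chosen by gene name among the 58735 genes measured, and all 35 names were found. RNA was sequenced from MM.1S, an established human multiple myeloma cell line, to look for genes that act downstream of PRMT1, a protein arginine methyltransferase. Each of the 3 control libraries came from cells transfected with si-NC, a non-targeting siRNA, and each of the 3 PRMT1 KD libraries from cells transfected with si-PRMT1, both at 100 nM with collection at 72 h. All libraries share the same cell line and the transfection itself, no untransfected cells were analysed here, and which of the PRMT1 siRNAs was used for RNA sequencing is not named. The 2 groups were labelled control and KD by genotype, although the perturbation was a transient knockdown.

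The transcription factor p53 is held low in unstressed cells by MDM2, which marks it for degradation, and by MDM4, which blocks its activity. DNA damage and other stresses free p53 from this control, and it then binds paired copies of a short sequence element and switches on genes for cell cycle arrest, apoptosis, DNA repair and metabolic adjustment, MDM2 itself included. In myeloma cells, as elsewhere, the pathway is read at the RNA level through these targets, since the control of p53 acts mainly on the protein.

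The libraries held 14439217 to 16465026 reads on genes, worked back from the deposited values. PRMT1 fell from 61.1 ± 1.97 FPKM (reads per gene, corrected for gene length and library size; SD, n = 3) to 13.3 ± 0.775 FPKM (SD, n = 3), 21.7% of the control mean, so the labels and the targeted gene went together. The 8 plasma cell markers checked were all above 1 FPKM in every library, and 1 of them, the surface receptor SLAMF7, was called, as lower in PRMT1 KD cells (limma adjusted p = 0.00515). The groups did not overlap in 5 of the 8 (62.5%, against 25.9% of all genes tested), with CD38 and MZB1 higher and SLAMF7, PRDM1 and XBP1 lower. Of 14 markers of other cell types, 12 had a mean under 1 FPKM, and MS4A1 and HBB are listed at 0 in every library. The exceptions were PAX5 at 0.781 to 1.30 FPKM and CD3E at 32.1 to 39.0 FPKM, while its partner CD3D reached at most 0.845 FPKM. CD3E was higher in each PRMT1 KD library than in each control library (log2 fold change 0.18, limma adjusted p = 0.135). CD3D went the other way without overlap, at 0.456 to 0.845 FPKM in control and 0 to 0.326 FPKM in PRMT1 KD libraries. It had at most 13 reads per library and was not tested. The part of these markers in the results on p53 target genes was not tested.

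Promoters were searched for the p53 half-site, the 10-base element that p53 binds in pairs, read on both strands (the element is its own reverse complement) with no mismatch allowed. The windows were RefSeq promoters on GRCh38.p14, from 250 bases before to 50 bases after each start site, and 28 of the 35 members had a window. The other 7 were not searched, so a member not named here as a match either held none or had no window. An exact half-site stood in 7 of these 28 members (25%, against 8.06% of all genes with a window). By window it stood in 17.5% of their 40 windows, against 6.63% of all 35116 windows. The 6 expressed members with a match are printed below, 30 bases each on the strand of the gene, with the half-site in capitals, since they let each promoter be set beside the gene's own change. The other match was in PLK2, which had no reads.
FAS, chr10:88991299-88991328, plus strand: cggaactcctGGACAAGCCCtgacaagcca
DDB2, chr11:47214975-47215004, plus strand: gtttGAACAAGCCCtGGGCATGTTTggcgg
SESN1, chr6:109009018-109009047, minus strand: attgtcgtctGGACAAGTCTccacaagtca
AEN, chr15:88621296-88621325, plus strand: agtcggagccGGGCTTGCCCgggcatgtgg
RPS27L, chr15:63157517-63157546, minus strand: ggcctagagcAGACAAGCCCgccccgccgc
FDXR, chr17:74872986-74873015, minus strand: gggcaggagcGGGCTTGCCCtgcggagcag
DDB2 alone among the members searched held 2 exact half-sites near each other, 1 base apart. Such an exact pair, with a spacer of at most 13 bases, was found in 10 of all windows. In FAS, SESN1 and AEN the 10 bases after the half-site differ from the element only in their outer letters. The search allowed no mismatch and so did not count these as pairs. The half-site of FAS began 122 bases before the start site of its RefSeq window. The pair in DDB2 began just after that of its own window, at position 6. A gene can have several start sites. The stretches of FAS and DDB2 lie inside their genes, whose first bases are 88990582 and 47214465. A match is a description of these letters and was not shown to be bound in MM.1S cells. Of these 6 genes, FAS rose after PRMT1 KD, and DDB2, SESN1, AEN, RPS27L and FDXR did not pass the test, as given with each gene.

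Most p53 target genes kept a similar level after PRMT1 KD, and the 2 that passed the test were both higher. FAS, the death receptor for FAS ligand, rose 1.75-fold, and TP53INP1, a p53-induced nuclear protein with roles in apoptosis and autophagy, rose 1.33-fold. CDKN1A, which encodes the cell cycle inhibitor p21, and the p53 antagonists MDM2 and MDM4 were higher in each PRMT1 KD library than in each control library but missed the threshold. No member was called lower, where 0.986% of all genes tested were.

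Of the 35 members, 28 had a mean of at least 1 FPKM over the 6 libraries and were tested, and each of these 28 was above 1 FPKM in the mean of both groups. With limma on log2(FPKM + 1) and Benjamini-Hochberg adjustment over 13585 genes, 2 of the 28 had an adjusted p under 0.05, or 7.14%, where 2.05% of all genes tested were called and 1.07% were called as higher. At an unadjusted p under 0.05 the count was 5 of 28 (17.9%), all higher, where the share of all genes was 19.5%, with 10.1% higher and 9.47% lower. In the same 5 members the libraries of the groups did not overlap (17.9%), against 25.9% of all genes, of which 13.6% were separated as higher and 12.3% as lower. Both shares of the members lay under those of all genes in either direction (19.5% and 25.9%). All 5 were higher, and 17.9% was above the shares of all genes that were higher (10.1% and 13.6%). The difference was not tested. The median log2 fold change was 0.03 over the members and 0.01 over all genes tested, with 19 members above 0 (67.9%, against 52.6% of all genes) and 9 below. The sign of a change near 0 depended on the setting. Of the 28 members, 15 were above 0 after median scaling, 16 after quantile normalization, 19 after rescaling to TPM and 13 without control 3. After median scaling the median was 0.0099 over the members and -0.0088 over all genes, and without control 3 it was -0.0013 and 0.0033.

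**Figure D1:**
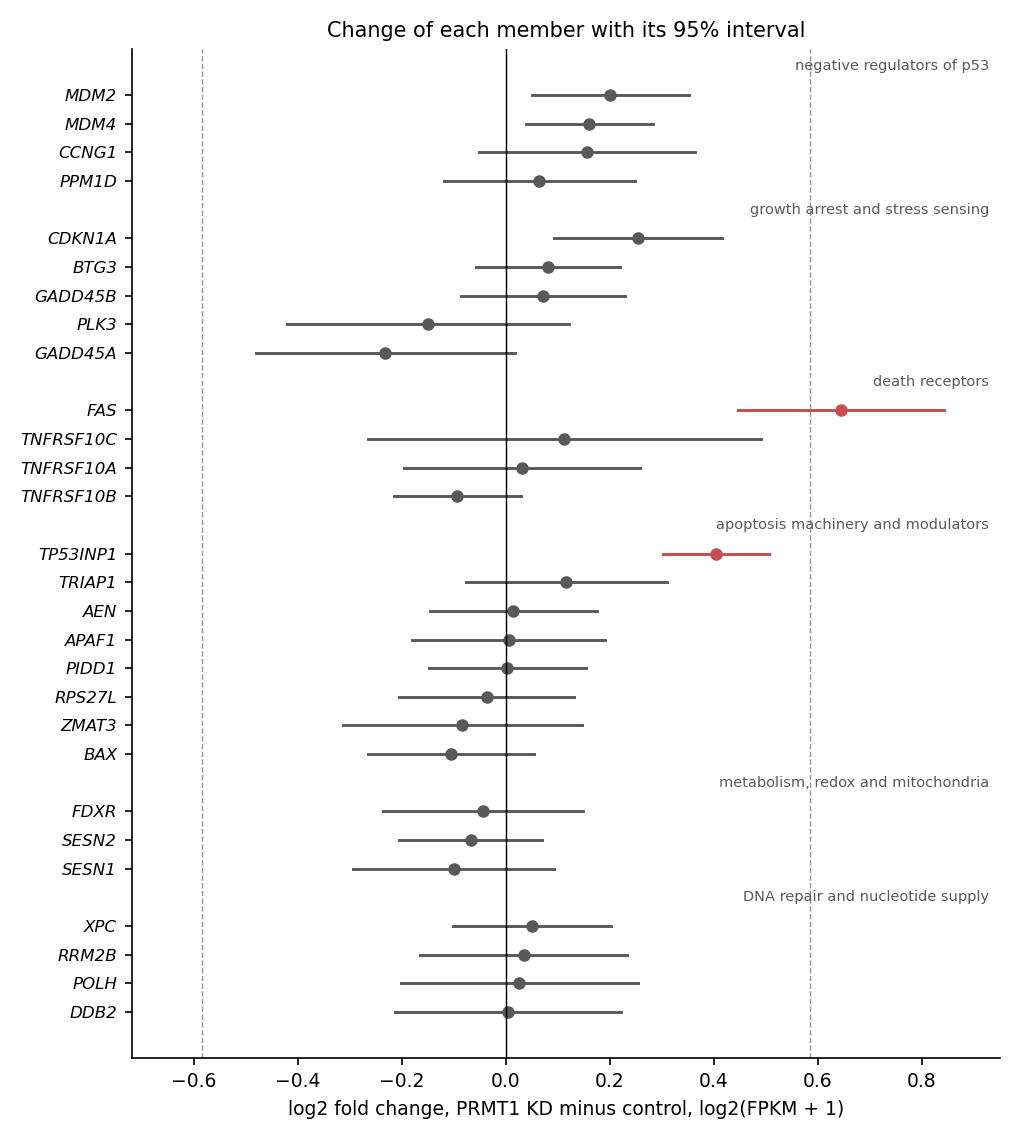
Log2 fold change (PRMT1 KD minus control, on log2(FPKM + 1)) of the 28 members tested, grouped by role, with bars for the 95% interval from limma and dashed lines at a 1.5-fold change either way. FAS and TP53INP1, in red, had an adjusted p under 0.05, and each of the 26 other members has an interval between the dashed lines.

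The precision was high enough to bound most members. The standard errors ran from 0.0434 to 0.160 on the log2 scale, and each of the 26 members that were not called had a 95% interval (limma, for 1 gene at a time) that lay within a 1.5-fold change in either direction on this scale. Adding 1 to each value makes a change of a low gene look smaller than it is. With 3 libraries a group, the exact permutation test cannot go below p = 0.1, and the replicates are described as dependent, so p-values measure the spread between these libraries, which may be technical.

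Among the death receptors, which start apoptosis from the cell surface, FAS stood apart from the receptors for TRAIL. FAS (ENSG00000026103, chromosome 10, 88990582 to 89015785, plus strand, hg38) was at 2.90, 2.57 and 3.27 FPKM in the control libraries. In the PRMT1 KD libraries it was at 5.17, 4.88 and 5.25 FPKM. The lowest PRMT1 KD library was thus above the highest control library. The means were 2.91 ± 0.353 and 5.10 ± 0.192 FPKM (SD, n = 3 each). The log2 fold change was 0.64 (SE 0.0839, limma adjusted p = 0.0263). These values rest on 176 to 230 reads per control library and 299 to 363 reads per PRMT1 KD library. Without the added 1, weighted by voom on the reads worked back, the log2 fold change of FAS was 0.81 (limma voom adjusted p = 0.000595). FAS shares 8.93% of its exon bases with ACTA2 on the opposite strand, and ACTA2 was at 0.0609 to 0.224 FPKM. Bulk libraries average over the culture, so that more or fewer cells with a transcript and more or less of it per cell cannot be told apart.

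TNFRSF10A and TNFRSF10B encode the TRAIL receptors DR4 and DR5, which carry a death domain, and TNFRSF10C encodes a decoy receptor without one. TNFRSF10B was the highest of the receptors per length, at 41.1, 38.9 and 37.4 FPKM in control cells and 35.4, 37.9 and 36.5 FPKM in PRMT1 KD cells. The groups overlapped, and the log2 fold change was -0.09 (95% interval -0.22 to 0.03, limma adjusted p = 0.37). TNFRSF10A was at 5.69 to 6.36 FPKM in control and 5.60 to 7.23 FPKM in PRMT1 KD libraries, and its log2 fold change was 0.03 (limma adjusted p = 0.897). TNFRSF10C was near 1.5 FPKM in both groups on only 34 to 66 reads per library, and its interval was the widest of all members tested, from -0.27 to 0.49. It also shares 26% of its exon bases with AC107959.4 on the same strand, so its reads are uncertain. EDA2R, the receptor for the ectodysplasin isoform EDA-A2, had 6 to 15 reads per library and was not tested. The difference in response between FAS and the TRAIL receptors was not tested.

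The apoptosis machinery and its modulators hold 10 members, of which 8 were tested and TP53INP1 was the 1 called. TP53INP1 (ENSG00000164938, chromosome 8, minus strand) was at 54.5, 51.8 and 54.8 FPKM in the control libraries. It was at 70.4, 70.3 and 73.4 FPKM in the PRMT1 KD libraries. The libraries within each group lay close together and the groups were well separated. The means were 53.7 ± 1.66 and 71.3 ± 1.77 FPKM (SD over 3 libraries in each group), and the log2 fold change was 0.40 (SE 0.0434, limma adjusted p = 0.0154). Each library had 4738 to 6595 reads on TP53INP1, which makes it the best measured of the members that changed.

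**Figure D2:**
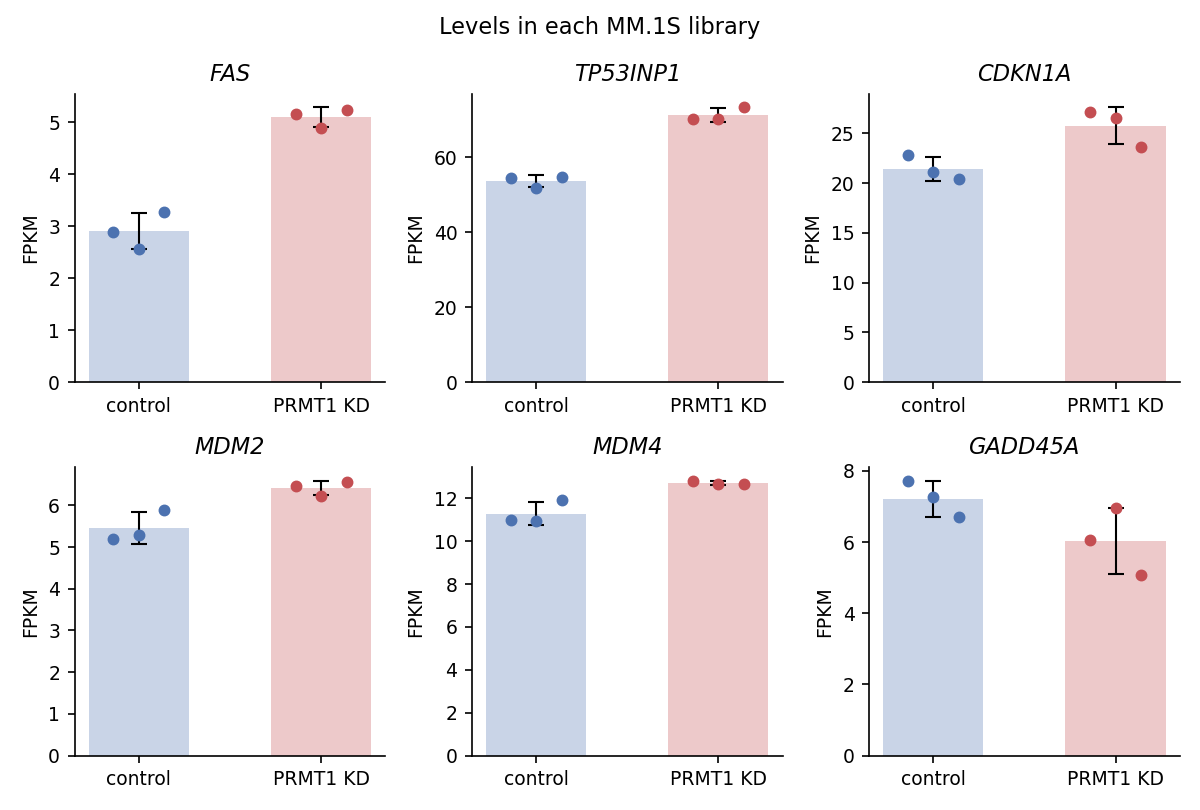
FPKM of 6 genes in each library (points; vertical axes start at 0 and differ between panels), with bars for the mean and error bars for the SD of 3 libraries. The PRMT1 KD libraries lie above all control libraries for FAS, TP53INP1, CDKN1A, MDM2 and MDM4, and the groups overlap for GADD45A.

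Both calls were sensitive to the number of libraries. FAS and TP53INP1 kept an adjusted p under 0.05 without control 3 (limma adjusted p = 0.0414 and 0.0424). FAS lost it without control 1 (0.135), control 2 (0.0897), PRMT1 KD 1 (0.0793), PRMT1 KD 2 (0.0982) or PRMT1 KD 3 (0.0729), all limma adjusted p. The same 5 omissions took TP53INP1 to limma adjusted p values of 0.103, 0.0792, 0.056, 0.0859 and 0.0521. The log2 fold changes themselves moved little, from 0.58 to 0.71 for FAS and from 0.38 to 0.42 for TP53INP1, while the count over all genes dropped to between 13 and 94. Neither gene was called with no filter on low values or with an ordinary linear model.

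The remaining apoptosis genes changed little. BAX, the effector that permeabilizes the mitochondrial outer membrane, was at 21.1, 20.7 and 19.5 FPKM in control and 20.5, 18.9 and 17.5 FPKM in PRMT1 KD cells (log2 fold change -0.11, limma adjusted p = 0.44). APAF1, the scaffold of the apoptosome, had means of 3.00 and 3.01 FPKM. PIDD1, which assembles a platform for caspase activation, had a mean of 12.8 FPKM in both groups, and it shares 1.82% of its exon bases with the abundant ribosomal protein gene RPLP2 (398 to 467 FPKM) on the opposite strand. AEN, a nuclease induced by p53 whose promoter half-site is printed above, had a log2 fold change of 0.01 (95% interval -0.15 to 0.18). The RNA-binding protein gene ZMAT3 was at 1.67 to 2.19 FPKM over the 6 libraries, with a log2 fold change of -0.08 (95% interval -0.31 to 0.15). TRIAP1, a small mitochondrial protein that restrains apoptosis, rested at 0.12 (-0.08 to 0.31) and has a pseudogene by name, TRIAP1P1, at 0.276 to 4.08 FPKM, with which reads could be split. RPS27L, a ribosomal protein-like gene, was at -0.04 (95% interval -0.21 to 0.13). TP53I3, a quinone oxidoreductase linked to oxidative stress in apoptosis, had 1 to 7 reads per library, and PHLDA3, an inhibitor of AKT, had 0 to 3. Neither was tested.

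Growth arrest and stress sensing genes were led by CDKN1A, the classic p53 target. CDKN1A (ENSG00000124762, chromosome 6, 36676460 to 36687339, plus strand) was at 22.8, 21.1 and 20.4 FPKM in control cells. It was at 27.1, 26.5 and 23.7 FPKM in PRMT1 KD cells. The groups did not overlap, but PRMT1 KD 3 lay less than 1 FPKM above control 1. The log2 fold change was 0.25 (SE 0.0685, 95% interval 0.09 to 0.42) with an unadjusted p of 0.00764 and a limma adjusted p of 0.113, a 1.20-fold difference in means that missed the threshold. The call depended on the test, since limma voom on the reads worked back gave an adjusted p of 0.0488 at a log2 fold change of 0.26.

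The GADD45 genes encode stress sensors that bind p21 and the cyclin B kinase CDK1, and neither of those with reads was called. GADD45A was at 7.70, 7.25 and 6.70 FPKM in control and 6.06, 6.95 and 5.08 FPKM in PRMT1 KD cells. Its log2 fold change was the lowest of any member tested, at -0.23 (95% interval -0.48 to 0.02, limma adjusted p = 0.283), and PRMT1 KD 2 lay within the control range. GADD45B was far more abundant per length, with means of 57.0 ± 3.45 and 60.0 ± 4.10 FPKM (SD, n = 3 each) and overlapping groups. GADD45G had no reads in any library. PLK3, a stress-activated polo-like kinase, was at 1.89 to 2.39 FPKM in control and 1.55 to 2.06 FPKM in PRMT1 KD libraries (log2 fold change -0.15, limma adjusted p = 0.515), and PLK2 had no reads. BTG3, an antiproliferative protein, was at 21.8 to 23.6 and 23.1 to 25.9 FPKM (log2 fold change 0.08, limma adjusted p = 0.496). Of the 7 genes with this role, 5 were tested and none was called by limma. At an unadjusted p under 0.05, 1 of the 5 was higher, where the share of all genes was 19.5%, with 10.1% higher.

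The negative regulators of p53 form feedback loops, since p53 induces most of them. All 4 were tested, all 4 lay above 0 (where 52.6% of all genes did), and none was called by limma. At an unadjusted p under 0.05, 2 of the 4 were higher, where the share of all genes was 19.5%, with 10.1% higher. MDM2 (ENSG00000135679, chromosome 12, 68808176 to 68850686, plus strand), the ubiquitin ligase for p53, was at 5.20, 5.29 and 5.89 FPKM in control cells. It was at 6.45, 6.23 and 6.57 FPKM in PRMT1 KD cells. The groups did not overlap, and the log2 fold change was 0.20 (SE 0.0638, unadjusted p = 0.0161, limma adjusted p = 0.149). MDM4 was at 11.0, 10.9 and 11.9 FPKM in control and 12.8, 12.7 and 12.7 FPKM in PRMT1 KD cells. Its groups did not overlap either, with a log2 fold change of 0.16 (SE 0.0516, limma adjusted p = 0.154). PPM1D, the phosphatase WIP1 that switches off p53 signaling, had overlapping groups at 5.03 to 5.37 and 5.08 to 6.16 FPKM. CCNG1, the cyclin G1 gene, was at 55.7, 51.4 and 60.0 FPKM in control and 57.0, 60.0 and 69.7 FPKM in PRMT1 KD cells, with overlapping groups (log2 fold change 0.16, limma adjusted p = 0.384).

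**Figure D3:**
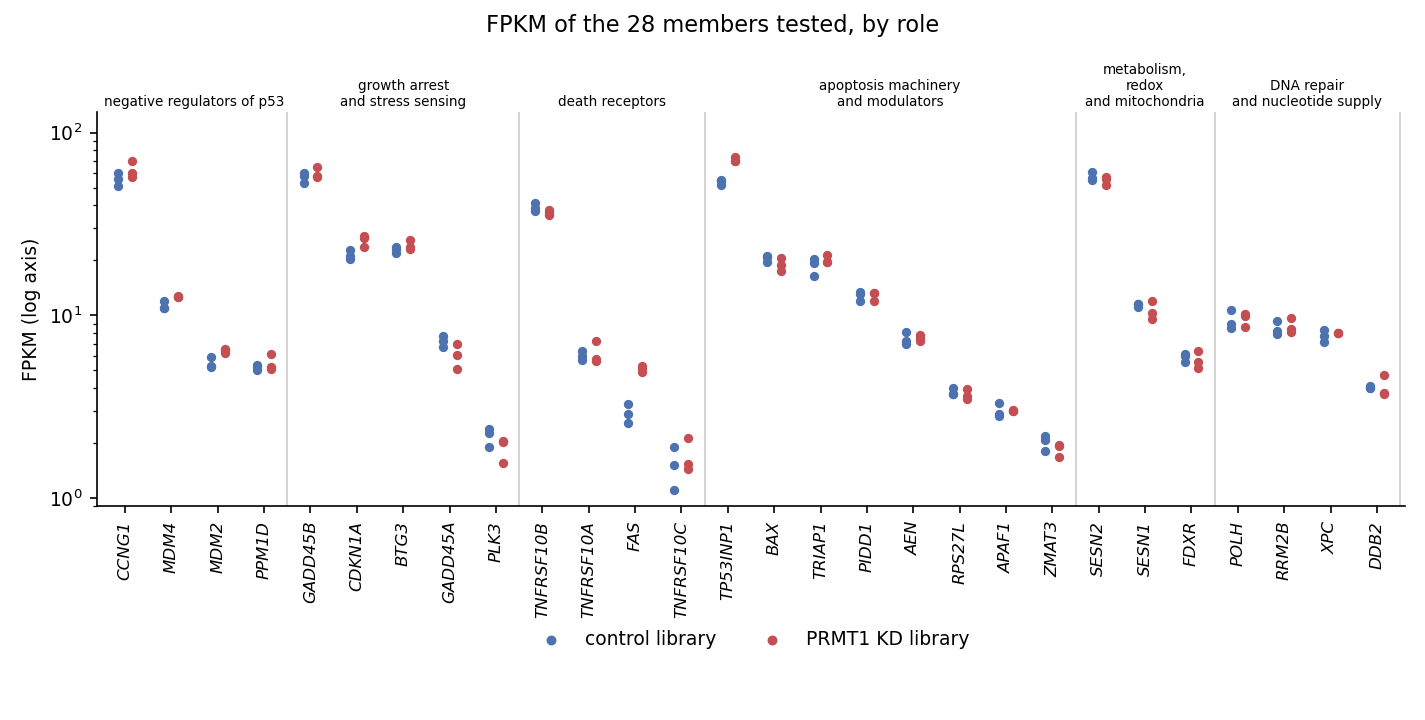
FPKM of the 28 members tested in each control (blue) and PRMT1 KD (red) library, on a log axis, grouped by role and ordered by level. Levels run from 1.10 FPKM (TNFRSF10C in control 3) to 73.4 FPKM (TP53INP1), and the groups do not overlap for 5 of the 28.

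The genes for metabolism, redox control and mitochondria held 3 tested members, all below 0 and none called, where 52.6% of all genes were above 0. SESN1 and SESN2 encode sestrins, which restrain mTORC1 and help peroxide defence. SESN2 was at 61.1, 56.8 and 55.2 FPKM in control and 55.5, 57.5 and 51.9 FPKM in PRMT1 KD cells (log2 fold change -0.07, limma adjusted p = 0.561). SESN1 was lower per length, with means of 11.4 ± 0.285 and 10.6 ± 1.26 FPKM (SD, n = 3 each). FDXR, the mitochondrial ferredoxin reductase, had a log2 fold change of -0.04 (95% interval -0.24 to 0.15). SESN1 and FDXR both carry a promoter half-site. TIGAR, a fructose bisphosphatase that lowers glycolysis, had 5 to 9 reads per library, and it shares 42.6% of its exon bases with AC008012.1 on the same strand, a gene listed at 0. SPATA18, a regulator of mitochondrial quality, had no reads.

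The genes for DNA repair and nucleotide supply lay closest to 0, with log2 fold changes from 0.00 to 0.05 and none called. XPC and DDB2 recognise ultraviolet lesions for nucleotide excision repair, POLH copies past them, and RRM2B is the p53-induced subunit of ribonucleotide reductase. DDB2, the member with the exact pair of half-sites, was at 4.01, 4.08 and 3.98 FPKM in control cells. In PRMT1 KD cells it was at 3.73, 4.74 and 3.70 FPKM. Its log2 fold change was 0.00 (95% interval -0.21 to 0.22), so the pair in the promoter went with no detectable change. XPC was at 7.13 to 8.33 and 7.98 to 8.05 FPKM, and it shares 23.8% of its exon bases with AC093495.1 on the opposite strand. POLH (log2 fold change 0.03, 95% interval -0.20 to 0.25) and RRM2B (0.03, -0.16 to 0.23) had overlapping groups.

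**Figure D4:**
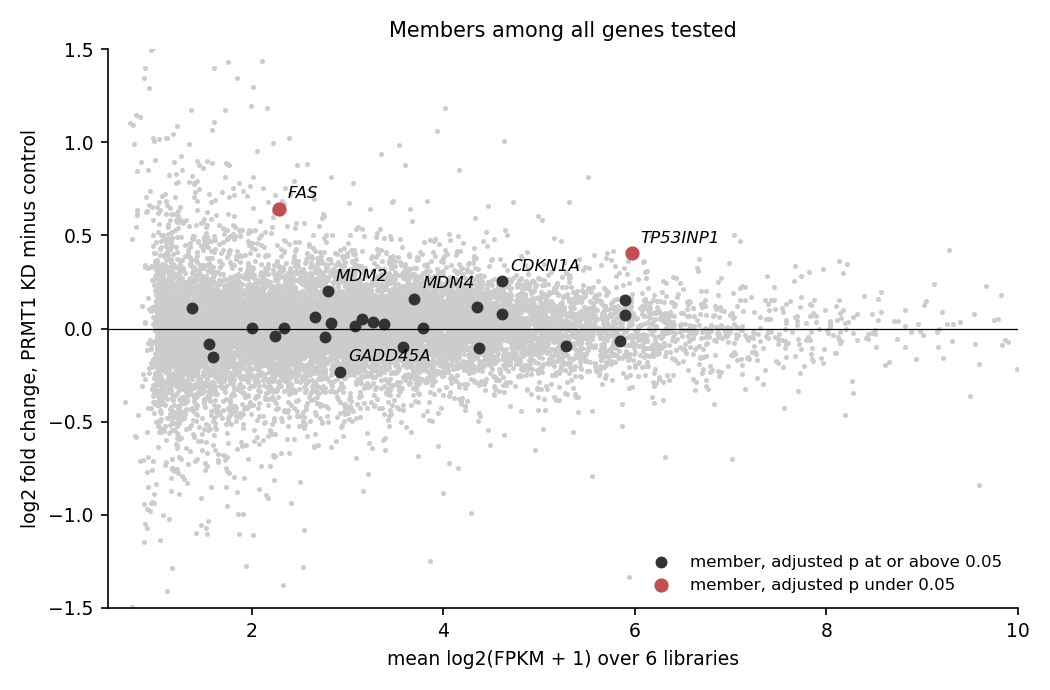
Log2 fold change (PRMT1 KD minus control) against the mean log2(FPKM + 1) over 6 libraries for the genes tested (grey; 39 lie outside the plotted range), with the members in black and the 2 called in red. FAS and TP53INP1 lie toward the upper edge of the grey cloud at their level, and the other members lie inside it.

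Genes that act on p53 were taken from a list of 30 upstream regulators, of which 29 were tested. The 1 regulator called was SETD7, a lysine methyltransferase known to methylate p53, at 5.83, 6.34 and 5.99 FPKM in control and 9.64, 9.02 and 9.03 FPKM in PRMT1 KD cells. It rose 1.53-fold (log2 fold change 0.54, SE 0.0572, limma adjusted p = 0.0154). As with FAS, its adjusted p stayed under 0.05 without control 3 (0.0473, limma) and rose to between 0.0521 and 0.103 without any of the other libraries. It was not called with no filter (0.0527) or an ordinary linear model (0.0628), both limma adjusted p. At an unadjusted p under 0.05, 4 of the 29 (13.8%) were higher and 0 lower, where the share of all genes was 19.5%, with 10.1% higher. They were SETD7, the acetyltransferase KAT2B, the deubiquitinase USP7 and the deacetylase SIRT1 (the last 3 named after their values were seen). The median log2 fold change of this list was 0.07.

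A list of 50 other p53-induced genes gave 37 that could be tested, with a median log2 fold change of 0.01, as over all genes. The 1 gene called was SUSD6, a p53-responsive membrane protein, at 7.04, 6.72 and 6.29 FPKM in control and 10.2, 9.04 and 8.55 FPKM in PRMT1 KD cells. Its rise of 1.39-fold (log2 fold change 0.42, limma adjusted p = 0.0488) passed the threshold narrowly and lost the call without any 1 of the 6 libraries, at limma adjusted p values of 0.0774 to 0.163. It was also lost after median scaling (0.0552) and quantile normalization (0.0549), without the trend (0.0828), with an ordinary linear model (0.138) and with no filter (0.263), all limma adjusted p. At an unadjusted p under 0.05, 2 of the 37 were higher and 2 lower, or 10.8%, against 19.5% of all genes.

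Activated p53 also lowers cell cycle genes, through p21 and the DREAM repressor complex. Of 24 such genes, 22 were tested, 4 were called (18.2%, against 2.05% of all genes), all higher, and 0 were called lower. At an unadjusted p under 0.05, 12 were higher and 0 lower (54.5%, against 19.5% of all genes, with 10.1% higher). The 4 called were MKI67 (log2 fold change 0.29), CCNA2 (0.28), CCNB1 (0.27) and CCNB2 (0.24), which encode the proliferation marker Ki-67 and cyclins of S phase and mitosis, at limma adjusted p values of 0.0404 to 0.0484. CCNB1 was at 74.0, 77.5 and 75.5 FPKM in control and 88.4, 89.9 and 97.1 FPKM in PRMT1 KD cells. All 22 lay above 0, where 52.6% of all genes did. They also did so under median scaling, quantile normalization and rescaling to TPM, and 20 of 22 did without control 3. The median log2 fold change was 0.19, and the groups did not overlap in 14 of the 22 (63.6%, where the share of all genes was 25.9%). None of the 4 kept its call by limma when any 1 library was left out. The count over the list was 0 without the trend, with an ordinary linear model and with no filter, and 2 with the replicate block. It was 3 after quantile normalization and 4 with a pseudocount of 0.1 and with a minimum mean of 10 reads. It was 6 after rescaling to TPM, and 7 with voom and with a mean of at least 5 FPKM. After median scaling CCNA2 alone of the 4 was past the threshold (limma adjusted p = 0.0496).

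**Figure D5:**
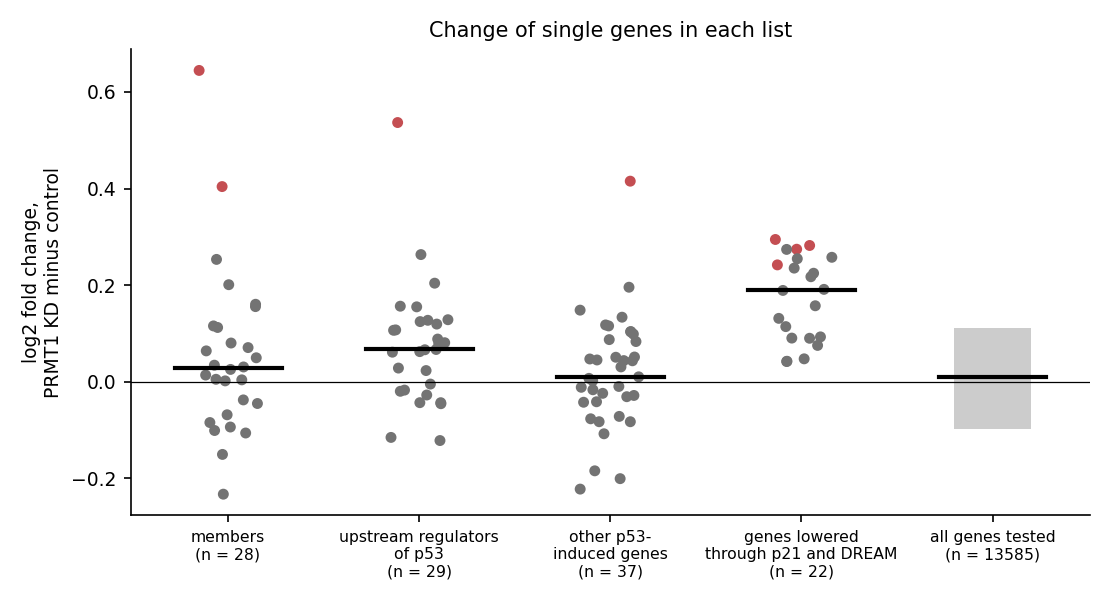
Log2 fold changes (PRMT1 KD minus control) of single genes in the members and in 3 lists around p53, with a black line at each median, red points for genes with an adjusted p under 0.05, and a grey box for the middle 50% of all 13585 genes tested. The medians are 0.03, 0.07, 0.01 and 0.19 from left to right, and 0.01 over all genes.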

How the data were processed

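Only the RNA sequencing of 3 control and 3 PRMT1 KD libraries was used. Groups and replicate numbers are those of the sample labels. The table the authors deposited holds FPKM for each gene in each library, with gene lengths, on hg38; the submitters' processing notes name featureCounts 1.5.0-p3, and the aligner, annotation release and strand setting are not given in the sources used here. Multiplied by gene length, all values above 0 (100%) were whole multiples of 1 step per library (tolerance 0.01), which gave the reads. The steps differed from those of the plain read totals and matched median-of-ratios size factors, so a scaling between libraries was already in the values. Lengths and coordinates of the 35 members matched GENCODE 29.

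Expression was tested with limma 3.58.1 (R 4.3.3) on log2(FPKM + 1), with a pseudocount of 1, empirical Bayes with trend, two-sided, Benjamini-Hochberg adjustment over genes whose mean reached 1 FPKM, and a threshold of 0.05. A mean under 10 reads was found for 704 genes tested. The members, their roles, the lists and the tests were chosen with earlier results of these data known, so lists are described by counts and medians with no test. All members were named, and from the lists the genes called with groups that do not overlap, at most 5 in each direction. A gene of these lists is not reported here. Alternatives covered the pseudocount, filters, scalings, tests, the replicate block and each library left out.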

Additional observations from a re-analysis of the deposited data

How the results depend on the processing

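FAS, TP53INP1 and PRMT1 kept their direction under every alternative run. The count of members called was 2 with a pseudocount of 0.1, a minimum mean of 10 reads, median scaling, quantile normalization, rescaling to TPM and the replicate block, and 3 with voom, which added CDKN1A. It was 0 with no filter (FAS 0.64, limma adjusted p = 0.136; TP53INP1 0.40, adjusted p = 0.0582) and 0 with an ordinary linear model (adjusted p = 0.0886 and 0.0628), 1 without the trend (FAS; TP53INP1 0.40, adjusted p = 0.0559), 1 with a mean of at least 5 FPKM, which FAS does not reach, and 5 at an unadjusted p. The count over all genes was 59 with no filter, 473 with at least 5 FPKM, 43 without the trend, 12 with an ordinary linear model and 894 with voom. Its split was 145 higher and 134 lower, but 90 and 145 after median scaling and 222 and 133 after rescaling to TPM. With each library left out in turn, members called ranged from 0 to 2, all genes called from 13 to 94, the log2 fold change of FAS from 0.58 to 0.71 and of TP53INP1 from 0.38 to 0.42, and the members' median from -0.0013 to 0.040. Of 436 results on the other members, 1 was called (CDKN1A by voom). The replicate numbers mark no shared batch in the labels. Same-numbered libraries of the 2 groups deviated together by r = 0.02, 0.063 and 0.101. Each was above every pair with different numbers, which ran from r = -0.075 to 0.019. With the replicate block, FAS and TP53INP1 had a limma adjusted p of 0.0437 each, and all genes called numbered 204, 147 of them shared with the fit without it. The 7 members under the filter had at most 15 reads in any library, and no change in them was tested.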
